A study of Homo sapiens with 12 samples.

Results

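Cadherins are calcium-dependent adhesion proteins of the cell surface, and 10 genes of this superfamily are described here in SH-SY5Y, a cloned subline of a human neuroblastoma culture. They are the cadherins CDH2, CDH4, CDH11 and CDH13 and the delta protocadherins PCDH7, PCDH9, PCDH10, PCDH17, PCDH18 and PCDH19. They were taken by gene symbol from a table of 67528 transcript clusters, of which 23781 carry 1 symbol, and from 913055 exon and junction probe sets, of which 672085 carry 1 symbol. A transcript cluster summarises a whole gene, and a probe set summarises a single exon stretch or junction. Of the 10 genes, 8 had a transcript cluster, 1 each. CDH4 and CDH13 were measured only by probe sets, since a cluster with either symbol was not analysed here. The 10 genes had 304 probe sets.

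The cells, in medium with 15% serum, received an siRNA against MATR3 (Matrin3, a nuclear RNA- and DNA-binding protein) or a negative control siRNA by electroporation (1100 V, 50 ms), the controls being electroporated too, and RNA was taken 48 h later. Each group held 3 samples, hybridised to Affymetrix arrays that gave both the gene-level and the exon-level values. The labels do not say whether replicates were separate cultures, so a p-value here speaks of variation among these 6 arrays and possibly of handling alone. The members were picked because some of them differed between these same 2 groups, so their differences are described here and are not tested as evidence.

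Classical cadherins bind the same or a related cadherin on the neighbouring cell, and their cytoplasmic tails hold catenins that link them to actin. CDH2 and CDH4 are of type I, CDH11 is of type II, and CDH13 is held by a lipid anchor and has no cytoplasmic tail. Delta protocadherins adhere more weakly and are expressed in patterned groups of neurons. PCDH7 and PCDH9 belong to the delta-1 branch, whose tails can bind protein phosphatase 1, and PCDH10, PCDH17, PCDH18 and PCDH19 to the delta-2 branch, several of which recruit the WAVE regulators of actin. In the neural crest lineage from which neuroblastoma arises, cadherins are known for their part in cell migration and sorting.

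The 250 bases before the annotated start are shown for CDH2, PCDH9, PCDH17 and PCDH18, the members with a kept cluster whose signal was higher in all 3 replicate pairs. They are from RefSeq (GRCh38.p14), 5′ to 3′ on the gene's strand. Capitals mark matches on either strand. The motifs searched were the GC box, spelled GGGCGG, the box spelled CCAAT, an E-box spelled CAGGTG and the TATA box, spelled TATAAA, none of which overlapped another.
CDH2 promoter (chr18:28177131-28177380, - strand): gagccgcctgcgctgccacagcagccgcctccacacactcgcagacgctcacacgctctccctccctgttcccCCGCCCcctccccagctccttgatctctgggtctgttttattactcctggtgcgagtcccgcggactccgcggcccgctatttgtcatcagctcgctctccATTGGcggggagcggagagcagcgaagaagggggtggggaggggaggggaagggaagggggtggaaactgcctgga
PCDH9 promoter (chr13:67230337-67230586, - strand): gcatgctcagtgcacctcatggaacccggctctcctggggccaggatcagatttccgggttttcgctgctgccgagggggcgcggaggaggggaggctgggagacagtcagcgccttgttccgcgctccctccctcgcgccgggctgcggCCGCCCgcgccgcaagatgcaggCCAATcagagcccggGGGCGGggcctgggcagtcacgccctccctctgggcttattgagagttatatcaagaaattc
PCDH17 promoter (chr13:57631494-57631743, + strand): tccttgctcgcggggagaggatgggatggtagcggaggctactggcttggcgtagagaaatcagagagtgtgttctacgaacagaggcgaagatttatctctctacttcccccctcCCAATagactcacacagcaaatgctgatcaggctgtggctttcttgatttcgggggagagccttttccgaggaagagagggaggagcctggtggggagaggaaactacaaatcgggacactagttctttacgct
PCDH18 promoter (chr4:137532495-137532744, - strand): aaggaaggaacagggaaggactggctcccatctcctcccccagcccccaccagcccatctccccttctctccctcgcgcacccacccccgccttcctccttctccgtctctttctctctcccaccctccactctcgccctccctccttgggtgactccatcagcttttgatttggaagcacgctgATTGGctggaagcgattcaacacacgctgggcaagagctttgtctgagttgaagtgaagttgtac

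All 4 of these windows hold a CCAAT box. Of the 10 genes, 7 had a promoter entry, and 6 of the 7 held CCAAT, against 32% of 35116 promoter windows of the same length. CDH4 was the entry without it. GGGCGG occurred once in the CDH2 window and 2 times in that of PCDH9, and 42.6% of all windows hold it. None of the 4 windows held CAGGTG, which 17.5% of all windows have, or TATAAA, which 10.7% have. PCDH9 had 20 CpG dinucleotides in its window, CDH2 17, PCDH17 10 and PCDH18 8, against a median of 11 over all windows. CDH11, CDH13 and PCDH10 are the members with no entry used here.

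The targeted gene was checked first. The MATR3 cluster, which the annotation shares with its neighbour SNHG4, had log2 signals of 11.21, 10.53 and 10.52 with MATR3 siRNA and 12.25, 11.75 and 11.68 with control siRNA. The groups did not overlap, and the pairs differed on average by -1.14 ± 0.09 (SD over 3 pairs). Replicate 1 of both groups stood apart. Those arrays correlated at 0.9955 across clusters with each other and at 0.981 to 0.986 with the rest, so each value below is given by replicate and as pair differences. Of 10 sympathoadrenal markers, 9 lay above the highest background probe set (mean 6.93 over the 6 arrays), and TH was the exception. The mean over that list was 11.34 to 12.00 with MATR3 siRNA and 11.56 to 11.99 with control siRNA. Of its 9 kept genes, limma with the replicate 1 block called ISL1 higher, at 0.54 ± 0.19 with overlapping groups, and DBH lower, at -0.84 ± 0.21 without overlap, beside 3.48% of all kept clusters with 1 symbol. ISL1 was not called after median centring. Of 10 mesenchymal, Schwann or fibroblast markers, 3 lay above the highest background probe set. The mean over all 10 was 6.06 to 6.54 with MATR3 siRNA and 5.99 to 6.49 with control siRNA. With the replicate 1 block, 0 of the 7 kept were called. The part of either list in the differences below was not tested.

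Among the classical cadherins CDH11 was lower and CDH2 higher after MATR3 siRNA. CDH11, a type II cadherin of mesenchymal and neural cells also known as OB-cadherin, had cluster signals of 8.10, 7.62 and 7.75 with MATR3 siRNA and 9.52, 8.96 and 8.95 with control siRNA. Every MATR3 siRNA sample lay below every control sample. The pair differences were -1.42, -1.34 and -1.20, averaging -1.32 ± 0.11 (SD, n = 3 pairs), or 40.1% of the level in controls. In RNA from whole cultures, fewer cells expressing a gene and less RNA per cell cannot be told apart.

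CDH2 is N-cadherin, the main classical cadherin of neurons. Its signals were 13.61, 12.92 and 13.21 with MATR3 siRNA and 13.00, 12.53 and 12.61 with control siRNA. The groups overlapped, since the replicate 1 control exceeded the replicate 2 knockdown sample, yet each pair was higher, by 0.61, 0.39 and 0.60 (mean 0.53 ± 0.12 SD, n = 3 pairs). The difference of group means was 0.35 without MATR3 siRNA replicate 1. That omission leaves the control replicate 1 array in, and with replicates 2 and 3 only the difference was 0.50.

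CDH4, or R-cadherin, a type I cadherin first known from retina, and CDH13, or T-cadherin, a receptor for adiponectin, are given as the mean log2 signal over their kept probe sets, those at or above the median of all probe sets. CDH4 had 16 kept of 43, with means of 7.54, 7.31 and 7.35 with MATR3 siRNA and 7.70, 7.24 and 7.18 with control siRNA. The pairs went both ways, at -0.16, 0.07 and 0.17 (mean 0.03 ± 0.17 SD, n = 3 pairs). CDH13 had 11 kept of 48, with means of 8.81, 8.42 and 8.41 with MATR3 siRNA and 8.67, 7.90 and 8.17 with control siRNA. Each pair was higher, by 0.14, 0.52 and 0.23 (mean 0.30 ± 0.20 SD, n = 3 pairs), and the groups overlapped. The difference of group means was 0.17 without MATR3 siRNA replicate 1, 0.51 without control replicate 1 and 0.13 without control replicate 2. With replicates 2 and 3 only, which leaves out replicate 1 of both groups, it was 0.38.

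Among the delta-2 protocadherins PCDH17 stood highest after MATR3 siRNA. PCDH17, which acts in the sorting of axons and in synapse formation in mice, had cluster signals of 10.76, 10.19 and 10.20 with MATR3 siRNA and 9.45, 8.55 and 9.02 with control siRNA. Every MATR3 siRNA sample lay above every control sample. The pairs differed by 1.31, 1.64 and 1.18, with a mean of 1.38 ± 0.24 (SD, n = 3 pairs), or 2.6 times the control signal.

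PCDH18, a protocadherin whose mouse protein binds the adaptor Dab1, had signals of 10.33, 9.76 and 9.71 with MATR3 siRNA and 10.08, 9.35 and 9.40 with control siRNA. Each pair was higher, by 0.25, 0.41 and 0.31 (mean 0.32 ± 0.08 SD, n = 3 pairs), while the groups overlapped. Without MATR3 siRNA replicate 1 the difference of group means was 0.12, without control replicate 1 it was 0.56 and without control replicate 2 it was 0.19. With replicates 2 and 3 only, which leaves out replicate 1 of both groups, it was 0.36. PCDH10, which takes part in synapse elimination in mice, and PCDH19, mutated in an epilepsy that mainly affects females, were dim. PCDH10 signals were 4.68, 4.28 and 3.78 with MATR3 siRNA and 4.55, 3.91 and 3.83 with control siRNA. Those of PCDH19 were 4.20, 4.18 and 3.91 against 4.04, 3.72 and 3.82. Both lay close to the median background probe set (3.65) and under the filter on dim clusters, so the differences of 0.15 ± 0.21 for PCDH10 and 0.24 ± 0.20 for PCDH19 (SD, n = 3 pairs) were not part of the fits over kept clusters.

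Of the delta-1 protocadherins PCDH9 was higher in every pair and PCDH7 was not. PCDH9, a neuronal protocadherin of cortex and retina, had signals of 6.60, 6.00 and 6.24 with MATR3 siRNA and 6.19, 5.64 and 5.77 with control siRNA. The pairs differed by 0.41, 0.36 and 0.47 (mean 0.41 ± 0.06 SD, n = 3 pairs), and the groups overlapped. Without MATR3 siRNA replicate 1 the difference of group means was 0.25, and with replicates 2 and 3 only, in both groups, it was 0.42. PCDH7, also called BH-protocadherin for its expression in brain and heart, had signals of 5.43, 5.39 and 5.28 with MATR3 siRNA and 5.54, 5.27 and 5.42 with control siRNA, which gives a mean over pairs of -0.04 ± 0.14 (SD, n = 3 pairs). The cluster means of PCDH7, PCDH9, PCDH10 and PCDH19 were all under the highest background probe set, and their differences are given with that limit.

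**Figure D1:**
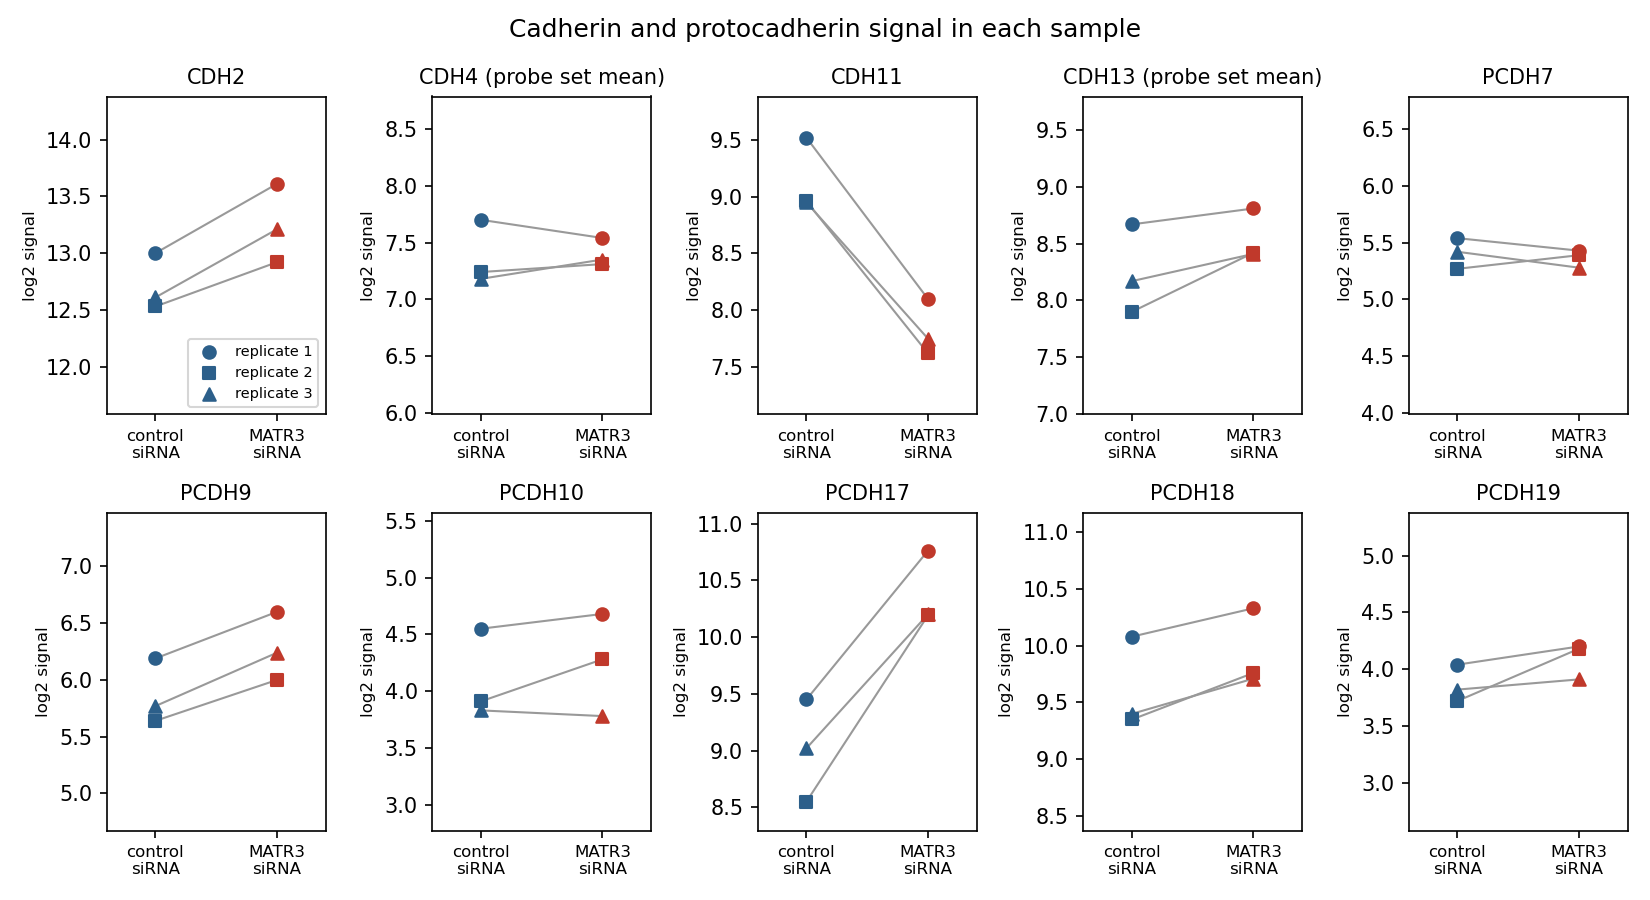
Log2 signal (vertical axes, each spanning the same range of log2 units) in each control siRNA sample (blue) and MATR3 siRNA sample (red), with a grey line joining the samples of a replicate number. Clusters are shown for 8 genes and the mean over kept probe sets for CDH4 and CDH13. CDH11 is lower and PCDH17 higher in every knockdown sample than in any control, and replicate 1 is the highest of its group in every panel.

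Of the 8 clusters, 6 passed the filter on dim clusters (mean at or above the median of all clusters). Their median difference was 0.36, against 0.04 over the 15209 kept clusters with 1 symbol. In limma with no block, 0 of the 6 were called at an adjusted p under 0.05, with 2 at an unadjusted p under 0.05, and 0% of 33782 clusters were called. The replicate number as a block called 0 of the 6 members and 0 of the same 33782 clusters. With that block over clusters with 1 symbol only, 1 of the 6, CDH11, was called, beside 0.0526% of clusters called (0.0197% higher and 0.0329% lower). With the replicate 1 arrays of both groups as a block, CDH11 was called lower and CDH2, PCDH17 and PCDH18 higher, 4 of 6, beside 3.48% of clusters called (2.08% higher and 1.41% lower). Because these members were chosen on this contrast, nothing is read from those counts. CDH2 and PCDH18 were not called with that block after quantile normalization or median centring, and the calls over all clusters, 316 higher and 214 lower, became 170 and 215 after the former and 58 and 147 after the latter. Without replicate 1, limma called 0 of the 6 (5 had an unadjusted p under 0.05), and the differences were -1.27 for CDH11 and 1.41 for PCDH17.

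CDH11 and PCDH17 were the clusters without overlap of the groups, the first below and the second above. Over all kept clusters with 1 symbol, 0.658% had every MATR3 siRNA sample below every control and 1.58% every one above. Signal higher in all 3 pairs, as in CDH2, PCDH9, PCDH17 and PCDH18, was found for 26.9% of these clusters, and signal lower in all 3, as in CDH11, for 14.4%.

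At exon level, 148 of the 304 probe sets of the 10 genes were kept, 97 of them with a difference above 0 and 50 below. PCDH10 had 0 kept of 16, and PCDH19 had 2 of 23. The exon-level and cluster values are summaries of the same arrays, so they are not separate evidence. PCDH17 probe sets shared a direction. All 13 of its kept probe sets were higher after MATR3 siRNA, 12 of them in all 3 pairs, a pattern shown by 17.9% of all kept probe sets with 1 symbol. Of the 13, 10 were at least 2-fold higher, against 1.59% of all kept probe sets, and in 9 the groups did not overlap, against 5.71%. The lowest difference was 0.69 for PSR13002778.hg.1, with 9.34, 8.19 and 8.40 after MATR3 siRNA and 8.34, 7.71 and 7.82 in the controls. The highest was 1.76 for PSR13002784.hg.1, with 11.02, 10.93 and 10.60 against 9.81, 8.35 and 9.11.

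CDH2 probe sets were shifted by less and were more spread. Of 40 kept probe sets 36 were higher and 4 lower, with a median of 0.55, and 28 were higher in all 3 pairs. The lowest was PSR18004407.hg.1 at -0.40 ± 0.29 (SD, n = 3 pairs), whose signal of 5.69 to 7.08 is far under that of the gene. The highest was PSR18004410.hg.1 at 1.05 ± 0.75, where the replicate 1 pair differed by only 0.19. PCDH18 had 11 higher and 3 lower of 14 kept, with a median of 0.38 and a range from -0.51 (PSR04021927.hg.1) to 1.05 (JUC04011559.hg.1). CDH13 had 9 higher and 2 lower of 11, from -0.32 (JUC16005076.hg.1) to 1.05 (JUC16005082.hg.1).

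CDH4 and PCDH7 showed no common direction. The 16 kept CDH4 probe sets had a median of 0.02, from -0.51 (JUC20003543.hg.1) to 0.68 (PSR20006685.hg.1). The last of these was 7.87, 7.64 and 7.81 after MATR3 siRNA and 7.51, 6.94 and 6.84 in the controls, without overlap. The 9 kept PCDH7 probe sets had a median of 0.12, from -0.51 (JUC04001439.hg.1) to 0.73 (PSR04003034.hg.1), and their mean signal differed by 0.10 ± 0.08 (SD, n = 3 pairs) where the cluster gave -0.04. For PCDH19 the 2 kept junction probe sets differed by 0.03 (JUC0X008236.hg.1) and 0.51 (JUC0X008231.hg.1), and neither had the same sign in all 3 pairs.

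PCDH9 had 10 higher and 1 lower of 11 kept probe sets, from -0.16 (JUC13004849.hg.1) to 1.31. The highest value was shared by 2 junction probe sets, JUC13004854.hg.1 and JUC13004855.hg.1, which hold identical values in every sample and so count as a single measurement. Their signal was 10.95, 12.00 and 4.74 after MATR3 siRNA and 10.03, 10.42 and 3.30 in the controls. Replicate 3 minus replicate 1 was -6.21 after MATR3 siRNA and -6.73 in the controls, a gap between replicates larger than the one between treatments. With these 2 included, the mean over kept PCDH9 probe sets differed by 0.67 ± 0.08 (SD, n = 3 pairs), and without them by 0.53 ± 0.04 over 9 probe sets.

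**Figure D2:**
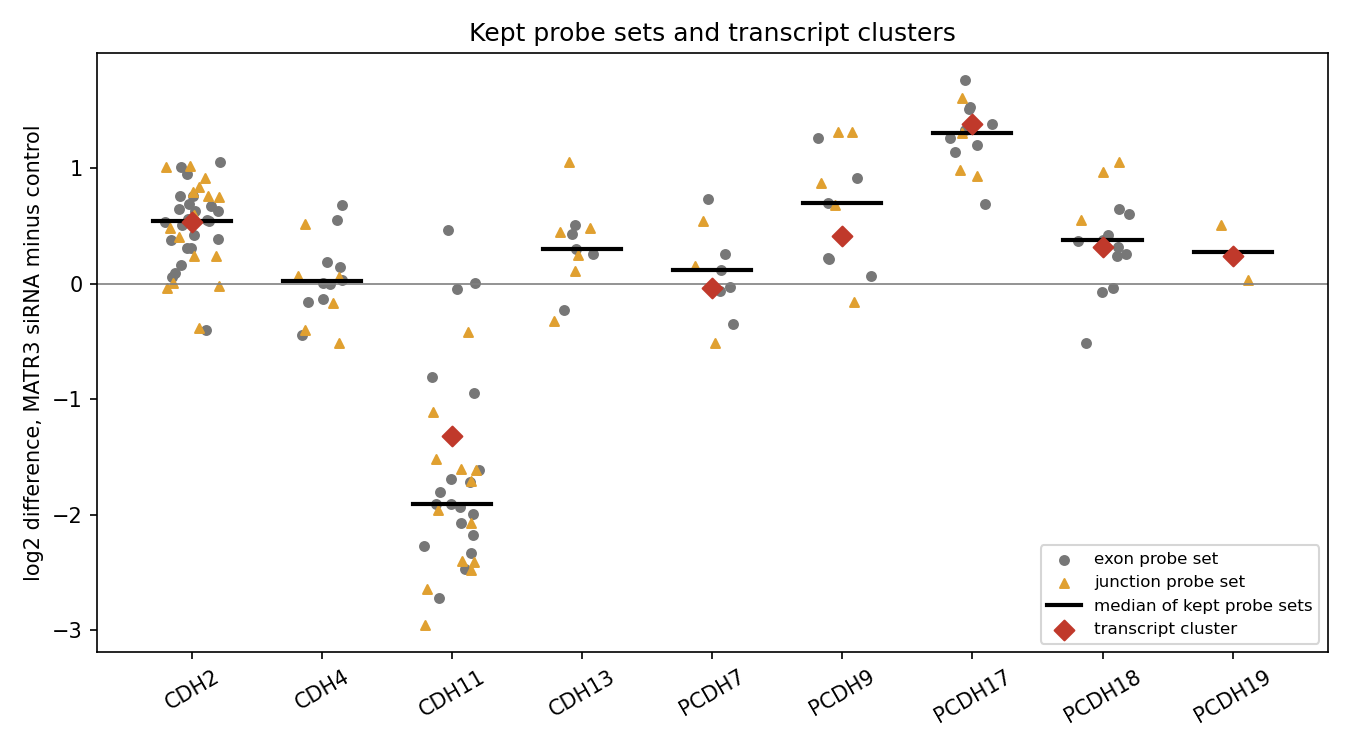
Log2 difference (MATR3 siRNA minus control siRNA, mean of 3 pairs, vertical axis) of each kept exon probe set (grey circles) and junction probe set (orange triangles) of 9 genes, with their median (black bar) and the transcript cluster (red diamond) where there is one. All 13 PCDH17 probe sets lie above 0, while CDH11 runs from -2.95 to 0.46.

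CDH11 had the lowest exon-level differences of the 10 genes, over a range from -2.95 to 0.46. Of its 32 kept probe sets 30 were lower, with a median of -1.91, against 0.00 over all kept probe sets with 1 symbol. In 26 the signal was at least 2-fold lower, against 2.81% of all kept probe sets, and in 27 the groups did not overlap, against 2.95%. The lowest was the junction probe set JUC16009105.hg.1, at 11.57, 9.40 and 10.08 after MATR3 siRNA and 13.66, 13.45 and 12.78 in the controls. Its pair differences of -2.09, -4.05 and -2.70 leave a mean of 13% of control. The exon probe set PSR16016172.hg.1 is a more even example, at 9.67, 9.40 and 9.41 against 11.85, 11.93 and 11.51, or 20.7% of control.

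The CDH11 probe set that did not follow its gene was PSR16016189.hg.1. Its signals were 10.65, 10.40 and 10.43 after MATR3 siRNA and 10.47, 9.88 and 9.75 with control siRNA. Each pair was higher, by 0.18, 0.52 and 0.68 (mean 0.46 ± 0.26 SD, n = 3 pairs), with the groups overlapping through the replicate 1 control. Relative to the mean over kept CDH11 probe sets in the same sample, its splicing index was 1.53, 1.95 and 1.82 with MATR3 siRNA and -0.23, -0.45 and -0.53 with control siRNA, which do not overlap. The difference of 2.17 ± 0.36 in that index therefore combines 0.46 in the probe set with -1.71 ± 0.15 in the mean of the gene's kept probe sets.

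It was not alone. By the rule that names every kept CDH11 probe set above -0.2, PSR16016187.hg.1 was at 0.01 ± 0.08 and PSR16016192.hg.1 at -0.05 ± 0.15 (SD, n = 3 pairs). PSR16016187.hg.1 had 8.22, 6.94 and 7.59 after MATR3 siRNA and 8.14, 7.01 and 7.56 in the controls, so the replicates differed and the treatments hardly did. PSR16016192.hg.1 had 6.39, 5.98 and 6.22 against 6.27, 6.11 and 6.37, under the highest background probe set. In identifier order, the 19 kept CDH11 exon probe sets formed a lower and a level stretch. All 16 kept ones up to PSR16016185.hg.1 were lower, from -2.72 to -0.81, and the 3 kept ones after it lay from -0.05 to 0.46. The 3 dim probe sets of that last stretch lay between -0.18 and 0.49. Of the 2 dim ones in the first stretch, PSR16016165.hg.1 was at -1.15 ± 0.81 and PSR16016168.hg.1, which broke the split, at 0.07 ± 1.16 (SD, n = 3 pairs). This split was seen in the values and has no test, and whether identifiers follow the order of exons was not analysed here. Of the 13 kept junction probe sets 12 were at least 2-fold lower. The exception, JUC16009114.hg.1, was at 14.63, 13.66 and 13.27 against 14.53, 14.03 and 14.27, a difference of -0.42 ± 0.55.

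**Figure D3:**
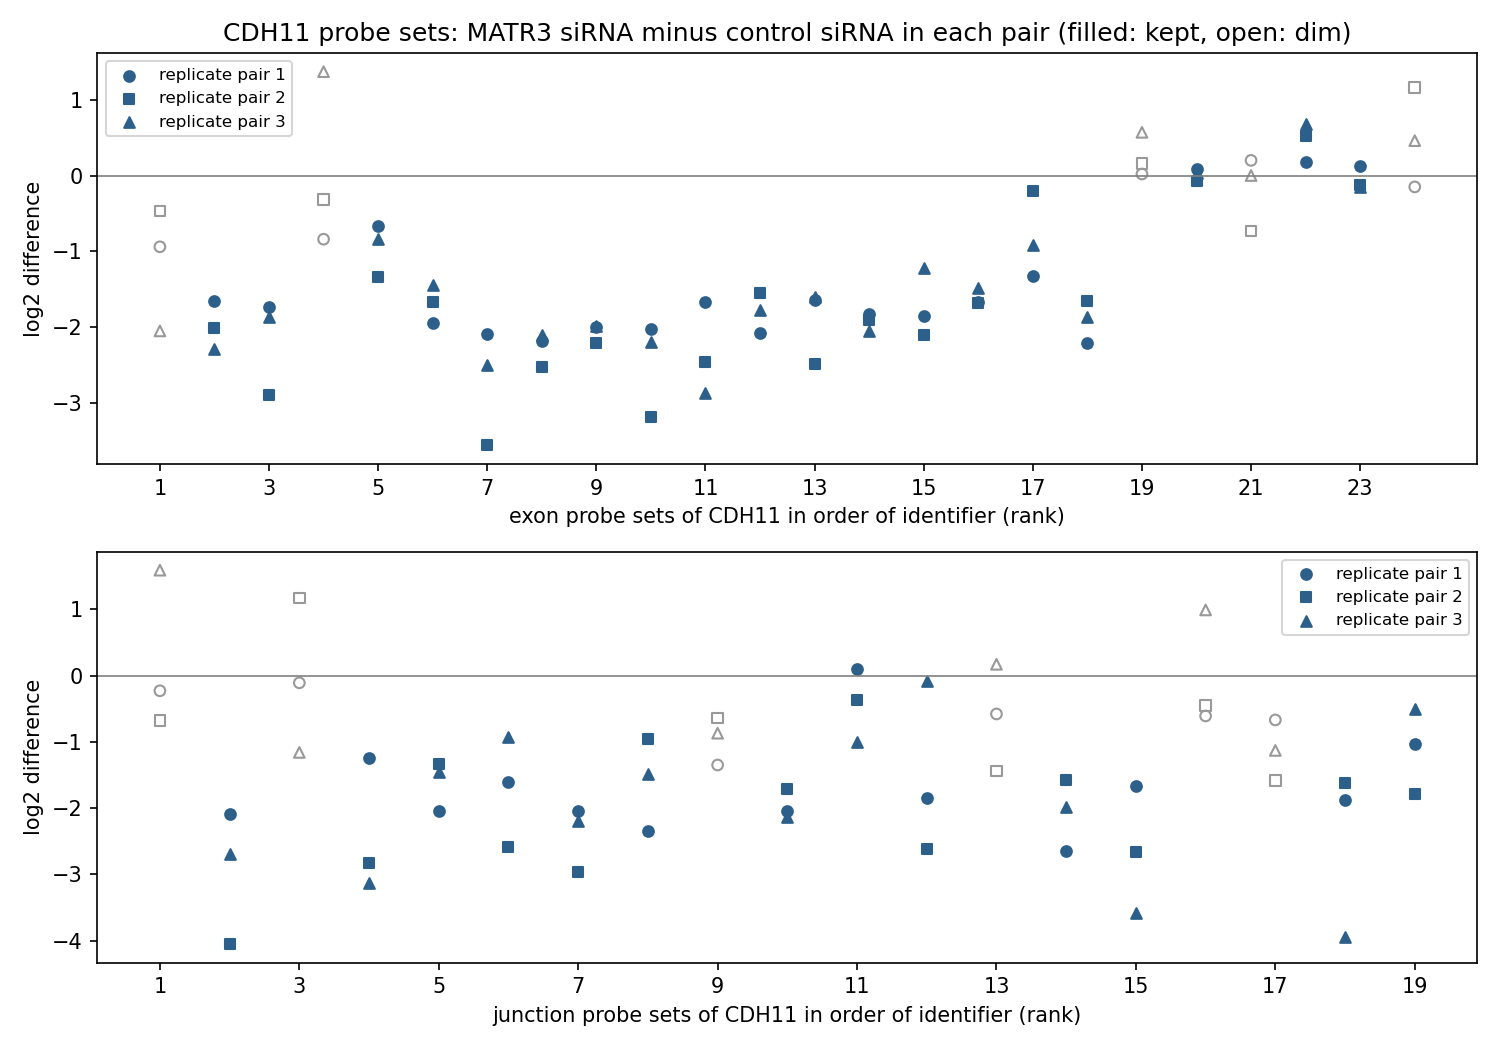
Log2 difference (vertical axis) in each of the 3 replicate pairs for the exon probe sets (top) and junction probe sets (bottom) of CDH11, ranked by identifier on the horizontal axis, with filled symbols for kept probe sets and open ones for dim probe sets. The kept exon probe sets from the left run below 0 in every pair, and the last 3 kept ones sit near or above it.

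The splicing index was fitted for 146 kept probe sets of 8 genes, all members with at least 5 kept. In limma with no block 0 of the 146 were called and 12 had an unadjusted p under 0.05, with 0% of 360570 probe sets called. With the replicate 1 arrays as a block 0 were called and 20 had an unadjusted p under 0.05, again with 0% called. With the replicate block 0 of the 146 were called, with 0.000277% of all probe sets. PSR16016189.hg.1 was among those not called.

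By position, RefSeq places PCDH17 and PCDH9 on the same chromosome with 5 protein-coding genes between them, PCDH20 among these, and PCDH10 and PCDH18 on another with 1 between them, PABPC4L. PCDH17 and PCDH9 were both higher in all 3 pairs, by 1.38 and 0.41. PCDH10 was dim while PCDH18, at 9.71 to 10.33 after MATR3 siRNA, was not. CDH11 and CDH13 share a chromosome with 183 protein-coding genes between them and differed in sign.

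Over the 6 samples, the kept clusters with 1 symbol whose pattern was most like that of CDH11 were SLC18A1 (Pearson r = 0.9901), a vesicular monoamine transporter, PRSS12 (r = 0.9881), a neuronal serine protease, and FRMD3 (r = 0.9861), of the band 4.1 family. All 3 had every MATR3 siRNA sample below every control, with differences of -1.24, -0.46 and -0.74. Those most like PCDH17 were CDC26 (r = 0.9889), a subunit of the anaphase-promoting complex, ELAPOR1 (r = 0.9867), a membrane protein of the endosome and lysosome system, and RBBP9 (r = 0.9824), a serine hydrolase. They were higher by 0.35, 0.49 and 0.63. The 6 points share the knockdown difference and the higher replicate 1 arrays, and these likenesses were picked out of 15208 clusters as a description.

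Other family members and partners were taken from lists by family and role, 131 genes in all. Of these, 98 had a cluster with 1 symbol and 57 were kept. With the replicate 1 arrays as a block, 1 rose and 1 fell among the 57 while 55 missed the threshold, beside the 3.48% of all clusters called. Their median difference was 0.01. With no block 0 of the 57 were called in limma and 0 had an unadjusted p under 0.05. With the replicate block 0 were called and 14 had an unadjusted p under 0.05.

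The gene that rose was FAT3, a giant atypical cadherin of neurons, with 6.38, 5.74 and 5.72 after MATR3 siRNA and 6.03, 5.17 and 5.11 with control siRNA. The pairs averaged 0.51 ± 0.14 (SD over 3 pairs), limma adjusted p = 0.0271 with the replicate 1 arrays as a block, 0.0744 with the replicate block and 1 with no block, on a signal under the highest background probe set. The gene that fell was VCL, vinculin, which ties the cadherin and integrin complexes to actin. It had 10.06, 9.16 and 9.05 after MATR3 siRNA and 10.56, 9.46 and 9.43 with control siRNA, a difference of -0.39 ± 0.10, with limma adjusted p = 0.0380, 0.0865 and 1 in the same 3 fits. In both genes the groups overlapped. FAT1, a related atypical cadherin, was not called, at -0.42 ± 0.14, but passed after quantile normalization (limma adjusted p = 0.0440) and median centring (limma adjusted p = 0.0328).

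In the lists of other classical cadherins, other protocadherins, protocadherin partners and proteases, 0 of the kept genes passed with the replicate 1 block, beside the same 3.48%. Only 3 of 19 other classical and type II cadherins were kept, the brightest being CDH24 at 0.24 ± 0.06 and CDH22 at 0.10 ± 0.12 (SD, n = 3 pairs). Of 6 other non-clustered protocadherins PCDH1 alone was kept, at -0.03 ± 0.09. Of 53 clustered protocadherins 26 had a cluster with 1 symbol and 18 were kept, with a median of -0.08, 6 above 0 and 11 below. Their brightest were PCDHB3 at 0.26 ± 0.12 and PCDHB14 at 0.20 ± 0.18, and since these genes are close paralogs, probes may read more than 1 of them. Among 8 kept catenins and linkers, VCL apart, 7 did not pass. Of 12 kept partners of protocadherin tails, 8 lay above 0 and 4 below, with a median of 0.06. The brightest were SET, a phosphatase inhibitor that binds PCDH7, at -0.03 ± 0.09 and PPP1CC, a catalytic subunit of protein phosphatase 1, at 0.03 ± 0.04. Of 7 kept proteases that mature or shed cadherins, the brightest were PSENEN, of the gamma-secretase complex, at -0.23 ± 0.22 and the sheddase ADAM17 at 0.08 ± 0.10.

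**Figure D4:**
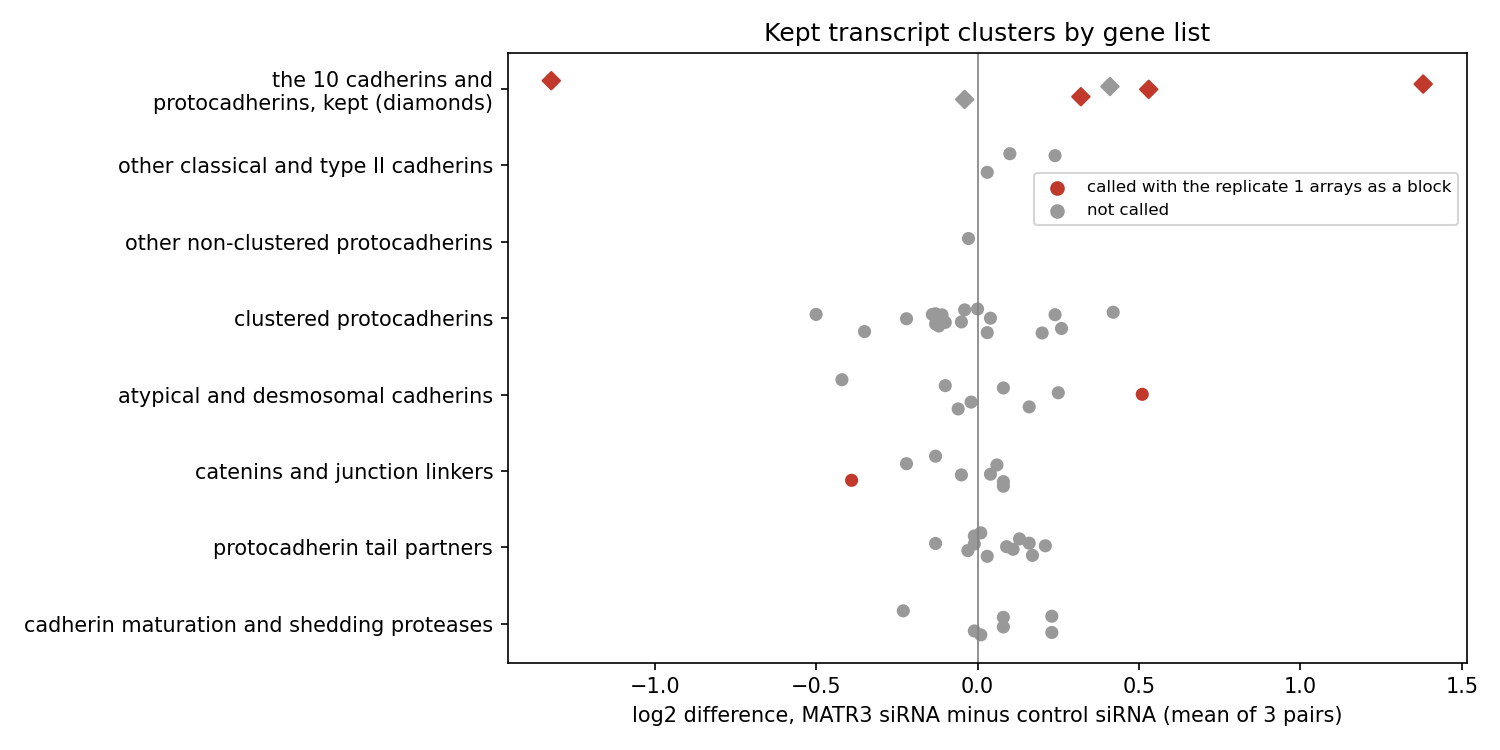
Log2 difference (MATR3 siRNA minus control siRNA, mean of 3 pairs, horizontal axis) of kept transcript clusters in the 10 described genes (top row, diamonds) and in each list of other family and partner genes, with calls of the model that has the replicate 1 arrays as a block in red. CDH11 and PCDH17 lie at -1.32 and 1.38, and all 57 clusters of the other lists lie between -0.50 and 0.51.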

How the data were processed

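Total RNA (100 ng input) of 3 MATR3 siRNA and 3 control siRNA samples was measured on Affymetrix arrays, summarised by the authors at gene and exon level. The deposited values are log2 signals, made with Affymetrix Expression Console and RMA per the submitters' processing notes; versions, order of steps and build are not given in the sources used here. Nothing was rescaled, and array medians ran from 4.80 to 5.16. The number of arrays limits the precision.

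Symbols came from the platform annotation, updated through RefSeq gene identifiers or older symbols. Features with a mean at or above the median were kept (33782 clusters, 15209 of them with 1 symbol). Tests were limma 3.58.1 in R 4.3.3 (lmFit and eBayes, two-sided, Benjamini-Hochberg, threshold 0.05) over all kept features. The splicing index subtracts, within each sample, the gene's average over kept probe sets from each probe set's log2 signal, where a gene had at least 5. Figures used Python 3.11.15 and matplotlib 3.10.9.

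Fits had no block, the replicate number as a block, or the replicate 1 arrays as a block. Equal replicate numbers were read as pairs, after deviations from group means correlated between same-numbered samples at 0.696, 0.327 and 0.527, each above 0.1. Those correlations cannot decide whether the replicates other than 1 are matched. Deviations within a group cancel out, so an offset common to both replicate 1 arrays can by itself make every such correlation positive. For the other replicates the pairing rests on equal numbers alone, and SDs over pairs and counts of pairs sharing a direction carry that limit. Members, lists and the replicate 1 block were chosen with earlier results of these data known. Genes outside the members were named as up to 4 called per list, or the 2 brightest where none was called, except FAT1, named after its values were seen. The fitting code was tested on simulated data that held a replicate 1 offset and large changes. That test does not bear on the choice of block or on small differences.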

Additional observations from a re-analysis of the deposited data

How the results depend on the processing

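With no block, the 0 called clusters became 8 with the replicate block over clusters with 1 symbol, 1 after quantile normalization and 3194 with array weights. The 0 called members became 1 and 4 in the first and last of these, and the 0 called list genes became 2 with array weights. The replicate block over all kept clusters left all 3 counts at 0. Leaving out single samples gave 0 to 0 for all 3 counts, and 0 to 1 for member probe sets called by splicing index. The 1 came without MATR3 siRNA replicate 1. With the replicate 1 arrays as a block, the 530 called clusters, 4 members and 2 list genes became 8, 1 and 0 with the replicate block, and 205 clusters and 2 members after median centring. Quantile normalization left 2 members called. The 75th percentile filter gave 973 clusters and 6 list genes, and no filter gave 124 clusters, 2 members and 0 list genes. Leaving out single samples gave 0 to 21 clusters, 0 to 1 members and 0 to 0 list genes; the 21 and the 1 came without MATR3 siRNA replicate 2, and each of the other 5 gave 0. Replicates 2 and 3 only, added after the data were seen, gave 0 for all 3 counts. Leaving out either replicate 1 array repeats that fit by construction, since the block then takes up the remaining replicate 1 array entirely. All 3 settings had the same 3776 clusters at an unadjusted limma p under 0.05, so their counts are not separate results. The cause of these changes was not tested. Of 103 alternative values of the member differences, 81 lay within 1 SD of the pair differences and 22 did not. The 81 include, for each of the 10 genes, the mean over pairs. That mean equals the main difference by construction, so its agreement says nothing about robustness. CDH11 ranged from -1.71 to -1.13, PCDH17 from 1.15 to 1.60, CDH2 from 0.35 to 0.70, PCDH9 from 0.25 to 0.67, PCDH18 from 0.12 to 0.56, CDH13 from 0.13 to 0.51 and PCDH19 from 0.16 to 0.33. CDH4 (-0.07 to 0.19), PCDH7 (-0.12 to 0.10) and PCDH10 (-0.07 to 0.38) took both signs. No gene had a second cluster to compare.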
